A study of Mus musculus with 14 samples.

Results

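The motile cilia genes of ependymal cells were followed in RNA of the mouse hypothalamus. A list of 37 genes was matched by symbol or alias to the array's gene names, and 33 of the 37 were measured, among 17097 genes in all. Dnah10, Dynlrb2, Tekt4 and Armc3 had no match and were not analysed here. Each gene was read from the probe set that named only that gene and had the highest mean over the 14 arrays, and 10 of the 33 had more than 1 such probe set.

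The study asked what the loss of Mfn1, a mitochondrial fusion protein, from neurons expressing pro-opiomelanocortin (POMC) does to the hypothalamus in the fed and the fasted state. Mice of 12 weeks, on a strain background mixed from C57Bl/6J, FVB/N and 129, formed 4 groups: control mice fed at random (n = 4), control mice fasted for 16 h (n = 3), POMC-specific Mfn1 knockout mice fed at random (n = 4) and such knockout mice fasted for 16 h (n = 3). Cells lining the ventricle are not the labelled target of the deletion, and the labels name no Cre line. From each hypothalamus sample, 150 ng of RNA went onto an Affymetrix array. Whether an array held 1 mouse is not stated, so the p-values reflect how far these samples scatter, which may be technical.

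Ependymal cells form the lining of the brain ventricles and carry tufts of beating cilia that move cerebrospinal fluid. Each motile cilium is built on an axoneme, a ring of doublet microtubules around a central pair, in which dynein arms make the force and radial spokes and the dynein regulatory complex coordinate it. The transcription factor Foxj1, together with regulatory factors of the RFX family, switches on the genes for these parts. In the hypothalamus such cells line the upper wall of the third ventricle, next to tanycytes, which mostly lack motile cilia.

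All values are log2 expression values on which the authors had corrected the background and normalised the arrays. Array medians lay between 4.98 and 5.05. Of 13 hypothalamic neuron markers, 12 were clear of background. Mfn1 lay between 8.99 and 9.12 in all groups, with an averaged genotype difference of 0.01 ± 0.03 (SE, adjusted p = 0.9995), so in whole hypothalamus it does not check the genotype labels. The numbers in the sample titles form a low series, to which all 6 fasted arrays and knockout fed replicate 1 belong, and a high series with the remaining 7 fed arrays. What this number series stands for is not stated, and in control mice it cannot be told apart from fasting.

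Most measured members of the cilia programme were clear of background, by a limit that most genes on the array passed. A gene was taken as clear of background when its mean lay above 4.09, the 95th percentile of 23 control probe sets without a target. By this limit 31 of the 33 members were clear, as were 13536 of all 17097 genes. The highest mean of these control probe sets was 5.28, above the means of many members. Among these is Dnali1, called below, at a mean of 5.08. The inner-arm dynein heavy chains Dnah1, at a mean of 3.76, and Dnah12, at 3.89, were not clear of background. Because probe sets differ in brightness, the levels of different members are not ranked here. Of 6 measured ependymal genes outside the cilium, such as Cd24a and S100b, 6 were clear of background, with a summed level between 11.77 and 11.94 on all arrays. In bulk tissue, fewer ciliated cells and less RNA per cell cannot be told apart.

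Foxj1, the master regulator of the programme, was at 5.57, 5.65, 5.57 and 5.77 in control fed mice and at 5.34, 5.99 and 5.32 in control fasted mice. It was at 5.28, 5.82, 5.87 and 5.65 in knockout fed mice and at 5.64, 5.66 and 6.03 in knockout fasted mice. The groups overlapped, and the lowest of the 14 values, 5.28, came from knockout fed replicate 1. Its averaged fasting difference was 0.016 ± 0.12 (SE), with 95% limits of -0.24 and 0.28.

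The clearest feature of the members was that they moved together from array to array within the groups. For each gene the group mean was subtracted, and Pearson's r was taken over the 14 arrays for the 465 pairs of the 31 members clear of background. The median r was 0.27, against 0.0037 for pairs of all 13536 genes clear of background. An r above 0.5 was reached by 23.4% of member pairs and by 7.04% of all pairs. The first principal component of the members held 43.1% of their within-group variance and the second 13.7%. These points share the arrays, the hybridisation and the normalisation, and the correlations are a description without a test.

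**Figure D1:**
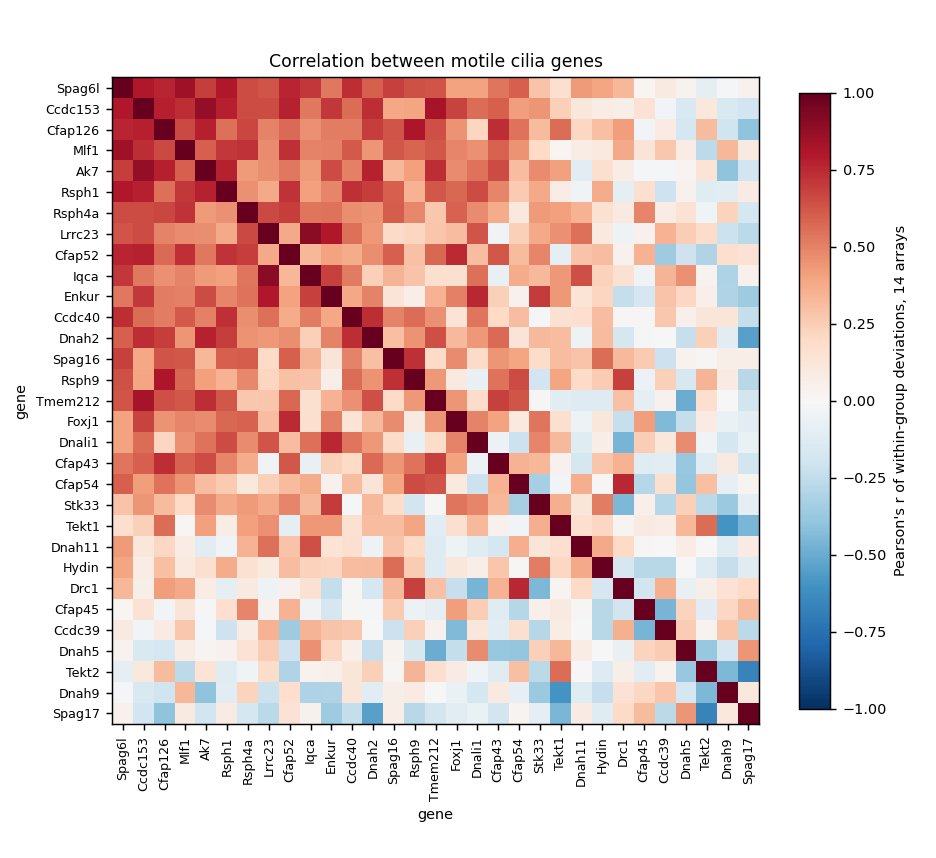
Pearson's r of within-group deviations over 14 arrays for each pair of the 31 members clear of background, ordered by each gene's r with the mean of the others. The red block at the upper left holds Spag6l, Ccdc153, Cfap126, Mlf1, Ak7 and Rsph1, and Spag17, Dnah9, Tekt2 and Dnah5 at the lower right stand apart from it.

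The genes that followed the others most closely came from different parts of the cilium. The central pair gene Spag6l had an r of 0.92 with the mean of the other members. Ccdc153, of the dynein regulatory complex, followed with 0.90. Cfap126 (Flattop), which lines the doublets and helps to place basal bodies, had 0.84, Mlf1 0.81, the adenylate kinase Ak7 0.77 and the radial spoke head gene Rsph1 0.76. In all, 19 of the 31 members (61.3%) had an r above 0.5 with the mean of the others, a level reached by 5.96% of the 13505 other genes clear of background.

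Spag6l shows the size of these shifts. It was at 5.77, 5.39, 5.23 and 5.82 in control fed mice, at 5.08, 5.21 and 5.31 in control fasted mice, at 5.12, 5.96, 5.81 and 5.59 in knockout fed mice and at 5.63, 5.50 and 5.34 in knockout fasted mice. Ccdc153 was at 8.50, 8.25, 8.17 and 8.77 in control fed mice, at 8.01, 8.20 and 7.93 in control fasted mice, at 8.03, 8.65, 8.71 and 8.14 in knockout fed mice and at 8.38, 8.31 and 8.43 in knockout fasted mice. Both genes were high on control fed replicate 4 and knockout fed replicates 2 and 3, and low on control fasted replicate 1 and knockout fed replicate 1. The closest pair of all was Lrrc23, of the radial spokes, with Iqca, of the dynein regulatory complex (r = 0.90), followed by Ccdc153 with Ak7 (0.88) and Spag6l with Mlf1 (0.85). A second Iqca probe set, also clear of background at a mean of 4.71, had an r of only 0.12 with the one used over the arrays. The other second probe sets clear of background, of Cfap52 and Dnali1, had 0.27 and 0.68.

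Other members did not share the movement. The outer-arm dynein heavy chains Dnah9 (r = -0.15) and Dnah5 (-0.0049), the central pair gene Spag17 (-0.20) and the tektin Tekt2 (-0.0054) had an r below 0 with the mean of the others. Members clear of background by a wide margin were among those that did not follow, such as Ccdc39 at a mean of 7.35 (r = 0.049). Members near background were among those that did, such as Spag16 at 4.15 (r = 0.62). Without knockout fed replicate 1 the r was 0.35 for Ccdc39 and 0.11 for Spag16. The median level was 5.65 for the 19 members with an r above 0.5 and 4.99 for the other 12. Tekt2 differed in kind: it lay between 5.45 and 5.69 on 9 arrays and between 5.97 and 6.34 on the other 5, with no value in a gap of 0.28. The higher 5 were control fed replicates 3 and 4, control fasted replicates 1 and 2 and knockout fasted replicate 2.

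One array carried much of the shared movement. On knockout fed replicate 1, 10 of the 31 members had their lowest value of the 14 arrays, and 3 lay above their own mean. Without it the median pairwise r was 0.14, against 0.0024 for all genes, and 14.6% of member pairs passed 0.5, against 8.29% of all pairs. On the remaining 13 arrays 11 members had an r above 0.5 with the others, and all 11 were among the 19. Spag6l (0.85), Ccdc153 (0.88), Cfap126 (0.73) and Ak7 (0.75) were among them. With the group means kept, the median r over all 14 arrays was again 0.27.

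Foxj1 and RFX factors switch on genes of this programme, so the promoters of the members were searched for short motifs of both. The RFX half-sites searched were GTTGCCA and GTTGCTA and the forkhead motif was TGTTTAC, each on both strands, in RefSeq windows of GRCm38.p6 from 250 bases before to 50 after the gene start. For 28 of the measured members there were 33 promoters. A half-site stood in 11 of the 33 (33.3%), against 7.63% of 32851 promoters of all genes, and TGTTTAC in 3 (9.09%), against 3.65%. A match describes the letters and shows neither binding nor a cause. The windows below were chosen because their genes were among the 11 that followed the others most closely, or, for Cfap43, because the gene was called below. Capitals mark the motif or, on the other strand, its reverse complement, and no matches overlapped in these windows.
Mlf1, chr3:67373961-67374020, plus strand: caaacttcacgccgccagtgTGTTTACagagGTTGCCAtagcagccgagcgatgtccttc
Ak7, chr12:105705831-105705890, plus strand: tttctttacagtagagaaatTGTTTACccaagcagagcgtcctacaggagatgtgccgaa
Lrrc23, chr6:124779846-124779905, minus strand: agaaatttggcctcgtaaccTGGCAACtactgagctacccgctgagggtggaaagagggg
Iqca, chr1:90153497-90153556, minus strand: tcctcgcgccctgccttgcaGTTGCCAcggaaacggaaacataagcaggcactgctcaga
Enkur, chr2:21205366-21205425, minus strand: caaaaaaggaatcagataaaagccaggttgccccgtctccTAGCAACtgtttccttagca
Cfap43, chr19:47837377-47837436, minus strand: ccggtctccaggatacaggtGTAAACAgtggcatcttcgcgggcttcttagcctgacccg

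Mlf1 was the only measured member whose window held both a half-site and TGTTTAC, which lie 105 and 116 bases before the gene start. A half-site lay 100 bases before the start of Iqca and 20 bases before that of Enkur, a protein inside the doublets. The reverse complement of TGTTTAC lay 55 bases before the start of Cfap43. Members that did not follow the others had half-sites too, among them Dnah5, Hydin, Cfap45 and Drc1. The windows of Spag6l and Ccdc153, the genes with the highest r, held none of the 3 motifs.

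Among genes that are not members, those whose deviations were most like the members' mean were Irx2 (r = 0.93), Tfpi (0.90), Lypd6b (0.90), Ctxn3 (0.89), Cul4b (0.89), Tpp1 (0.88), Tbc1d25 (0.88), Psme2 (0.87), Efcab1 (0.87) and Lrrc51 (0.87), over 14 arrays. Efcab1 codes for calaxin, a calcium sensor of the outer dynein arm. Without knockout fed replicate 1, Irx2 kept an r of 0.87 and Tfpi of 0.93, while Psme2 stood at place 66.

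The mean of the 31 members on each array, each centred on its own mean, summarises the programme. This cilia score was highest on control fed replicate 4 (0.17) and knockout fed replicates 3 (0.17) and 2 (0.16), and lowest on control fasted replicate 1 (-0.19) and knockout fed replicate 1 (-0.18). By group it was 0.038 ± 0.10 (SD, n = 4) in control fed, -0.12 ± 0.062 (n = 3) in control fasted, 0.028 ± 0.17 (n = 4) in knockout fed and 0.031 ± 0.035 (n = 3) in knockout fasted mice. The 3 control fasted arrays lay below all control fed arrays, and the knockout fed group spanned nearly the whole range of the other groups.

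**Figure D2:**
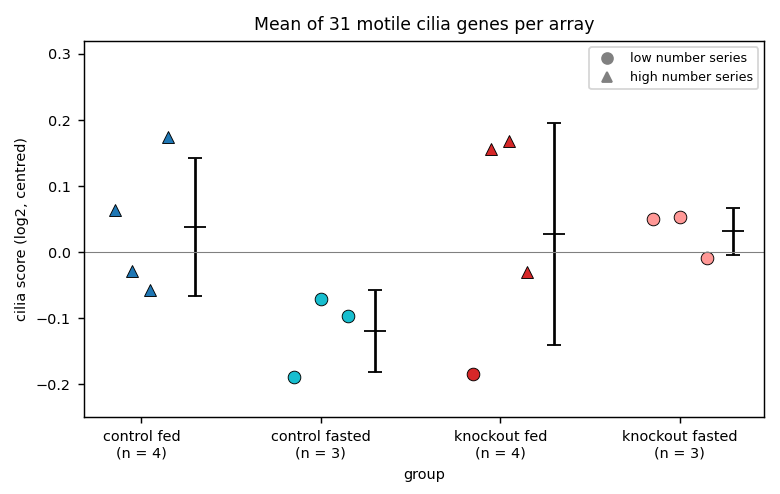
Cilia score of each array (mean of 31 centred log2 values), with each group's mean and SD beside its points; circles are arrays of the low number series and triangles of the high one. The control fasted arrays lie from -0.19 to -0.071, and knockout fed replicate 1, the only fed array of the low series, lies at -0.18.

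The first comparison asked how the 16 h fast changed the programme, averaged over both genotypes (6 fasted against 8 fed arrays). The fast left most members without a call: 1 rose and 1 fell past an adjusted p of 0.05, while 10% of all genes passed. Unadjusted, 8 members were under 0.05, of which 2 were higher and 6 lower, against 26.0% of all genes, so the members' share was close to that of the array. No member had all 6 fasted values on one side of all 8 fed values, as 3.40% of all genes did. The median difference was -0.033 for the members and 0.0025 for all genes. The range ran from -0.39 to 0.20, and the 95% limits lay within 1 log2 unit for all 33 members.

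Dnali1, the light intermediate chain of the inner dynein arms, fell. It was at 5.09, 5.41, 5.22 and 5.26 in control fed mice and at 4.69, 5.02 and 4.79 in control fasted mice. It was at 5.07, 5.39, 5.56 and 4.98 in knockout fed mice and at 5.09, 4.78 and 4.76 in knockout fasted mice. All control fasted values lay below all control fed values, whereas the knockout groups overlapped. The averaged log2 difference fell by 0.39 ± 0.10 (SE, adjusted p = 0.0233), a level 1.31-fold lower in fasted mice. A second Dnali1 probe set had an r of 0.68 with the first over the arrays, and with the mean of both the difference was -0.27 (adjusted p = 0.0847).

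Cfap43, an axonemal protein that tethers an inner-arm dynein to the doublet, rose. It was at 5.35, 5.21, 5.20 and 5.28 in control fed mice and at 5.33, 5.25 and 5.27 in control fasted mice. It was at 5.12, 5.39, 5.27 and 5.20 in knockout fed mice and at 5.49, 5.65 and 5.71 in knockout fasted mice. The knockout fasted arrays stood above the other 11. The averaged difference was 0.20 ± 0.05 (SE, adjusted p = 0.0272), a level 1.15-fold higher in fasted mice. By genotype it was 0.023 ± 0.07 in control and 0.37 ± 0.07 in knockout mice, so the average came from the knockout arrays.

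Both calls depended on single arrays. Dnali1 passed in 14 of 19 alternatives, with adjusted p between 0.0134 and 0.822, and Cfap43 in 12 of 20, between 0.0158 and 0.238. Dnali1 did not pass without control fasted replicate 1 (adjusted p = 0.0611) or 3 (0.0524) or without knockout fasted replicate 2 (0.064). Cfap43 did not pass without knockout fasted replicate 2 or 3, control fed replicate 2 or 3, or control fasted replicates 1 or 3, with adjusted p between 0.051 and 0.0692. Cfap43 did not pass with a trended and robust prior either (adjusted p = 0.0986). With a term for the number series the differences were -0.18 for Dnali1 and 0.34 for Cfap43, and neither passed. That term is set by knockout fed replicate 1 alone, the only fed array of the low series, so these values restate that array and do not test the series.

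Further members with an unadjusted p under 0.05 were lower in fasted mice. The radial spoke head gene Rsph4a was at 6.06, 6.03, 6.10 and 6.29 in control fed mice, at 5.62, 5.82 and 5.98 in control fasted mice, at 5.76, 6.28, 6.69 and 6.29 in knockout fed mice and at 5.83, 5.83 and 5.97 in knockout fasted mice. The control groups did not overlap, and knockout fed replicate 1 lay below its fasted counterparts. The averaged difference was -0.35 ± 0.11 (SE, adjusted p = 0.0714), and with the term for the number series, which rests on that array, it was 0.23. Rsph4a fell past the threshold without knockout fed replicate 1 (-0.43, adjusted p = 0.00829) and with a trended and robust prior (adjusted p = 0.0475). Stk33, a serine/threonine kinase, differed by -0.29 ± 0.09 (adjusted p = 0.065), Drc1, of the dynein regulatory complex, by -0.24 ± 0.09 (adjusted p = 0.0935), Ccdc39, of the ruler that sets the repeat of the axoneme, by -0.19 ± 0.08 (adjusted p = 0.158) and Cfap45, a protein inside the doublets, by -0.14 ± 0.06 (adjusted p = 0.185). The radial spoke head gene Rsph9 was 0.10 ± 0.04 higher (adjusted p = 0.168). In the alternative fits Stk33 passed in 2 of 19 (smallest adjusted p = 0.0347) and Drc1 in 1 of 20 (0.038).

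By role, the 5 genes of the dynein regulatory complex and ruler were all lower in fasted mice on average (median -0.19), and none passed. Of the 4 radial spoke genes 1 was higher (median -0.14), and of the 5 central pair genes 2 (median -0.035). The 7 dynein arm genes had a median of -0.0054, with Dnali1 far below the heavy chains. Of the 7 tektins and doublet proteins 5 were higher (median 0.025).

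Other members without a call are given here by their range over the 14 arrays. In the central pair, Spag16 lay between 3.83 and 4.43, Spag17 between 3.97 and 4.49, and Hydin, whose loss in mice causes hydrocephalus, between 4.11 and 4.67. All 3 came close to or under the background limit of 4.09 on some arrays. The outer-arm heavy chains Dnah5, Dnah9 and Dnah11 lay between 3.95 and 4.49, 4.74 and 5.09, and 4.89 and 5.43, and the inner-arm chain Dnah2 between 4.52 and 4.99. Iqca had the widest range of all members, 1.10, from 4.68 to 5.78, and Dnah9 the narrowest, 0.35.

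Among the doublet proteins, the tektin Tekt1 lay between 5.55 and 6.22, Cfap52 between 4.98 and 5.96, Enkur between 6.23 and 6.98 and Cfap126 between 6.84 and 7.6. Ccdc40, which forms the axonemal ruler with Ccdc39, lay between 4.36 and 4.94. Tmem212, a membrane protein of ciliated cells, lay between 7.42 and 8.37, and Mlf1 between 5.19 and 6.18. In all groups but knockout fasted, the spread of Tmem212 was larger than the differences between group means. Tmem212 was at 7.90 ± 0.46 (SD, n = 4) in control fed, 7.81 ± 0.29 (n = 3) in control fasted, 7.77 ± 0.35 (n = 4) in knockout fed and 7.94 ± 0.07 (n = 3) in knockout fasted mice.

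**Figure D3:**
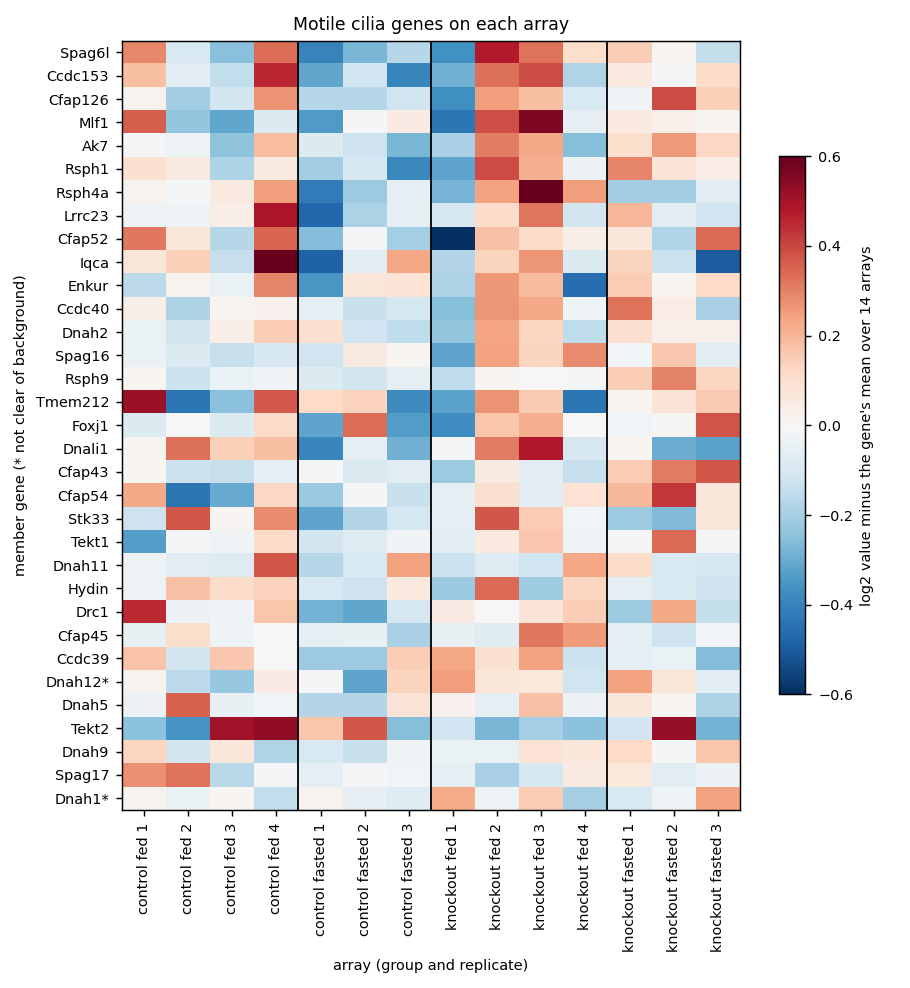
Log2 value of each of the 33 measured members on each of the 14 arrays, minus the gene's mean; rows follow the order of the correlation plot and a star marks genes not clear of background. Columns of one colour over many rows are arrays on which the members moved together, such as knockout fed replicate 1 (blue) and knockout fed replicates 2 and 3 (red).

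Within control mice, 29 of the 33 members were lower after the fast and 0 passed (smallest adjusted p = 0.128 for Drc1), where 2.76% of all genes passed. Unadjusted, 5 members were under 0.05, all lower, against 17.5% of all genes. The median was -0.11 for members and -0.005 for all genes. Groups did not overlap for 4 members, Rsph4a, Lrrc23, Dnali1 and Drc1, against 16.5% of all genes. Drc1 was at 6.82, 6.34, 6.35 and 6.54 in control fed mice and at 6.09, 6.06 and 6.27 in control fasted mice, a difference of -0.37 ± 0.12 (SE). Lrrc23 was at 6.52, 6.53, 6.59 and 7.04 fed and at 6.08, 6.36 and 6.49 fasted, a difference of -0.36 ± 0.15 (adjusted p = 0.221). With a term for the number series the members' median was 0.10 in place of -0.11. In control mice the series and the fast coincide, so this term comes from knockout fed replicate 1 against the other knockout fed arrays and restates the low values of that array. Microglial markers were lower in the same arrays. Of 9 microglial markers 4 fell (median -0.52), and their summed level lay between 10.73 and 10.92 in control fasted and between 11.08 and 11.19 in control fed arrays. Of 9 endothelial markers 1 rose and 1 fell (median -0.24), while their summed level lay between 11.95 and 12.02 in control fasted and between 11.65 and 11.96 in control fed arrays. The part of either cell type in the member differences was not tested.

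Within knockout mice, 1 member rose and 0 fell, where 0.696% of all genes passed. Cfap43 was 0.37 ± 0.07 higher (SE, adjusted p = 0.039), 1.29-fold. It passed in 8 of 21 alternatives, with adjusted p between 0.0232 and 0.182. It did not pass without knockout fasted replicate 2 or 3, knockout fed replicate 1, 3 or 4, control fed replicate 2, 3 or 4, or control fasted replicates 1 or 2, where adjusted p lay between 0.0528 and 0.171. Unadjusted, 4 members were under 0.05, against 16.5% of all genes. Groups did not overlap for 2 members, Rsph9 and Cfap43, against 13% of all genes. Rsph9 was at 8.07, 8.23, 8.22 and 8.21 in knockout fed mice and at 8.37, 8.52 and 8.35 in knockout fasted mice, a difference of 0.23 ± 0.06 (adjusted p = 0.0984). The median was 0.0058 for the members and 0.0075 for all genes, and it moved between -0.037 and 0.063 with 1 array left out.

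The only fed array of the low series allows a comparison of values within that series. The knockout fasted mean minus knockout fed replicate 1 was above 0 for 25 of the 33 members, with a median of 0.18, against 0.017 for all genes. For Foxj1 it was 0.50, for Cfap43 0.50, for Rsph9 0.34 and for Dnali1 -0.19. With 1 fed array this has no test, and that array lay below its own group by more than any other array (mean deviation -0.21).

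The next comparison asked whether the members differ between knockout and control mice. Averaged over feeding states, 0 members passed, while 0.00585% of all genes (1 gene) did, and the smallest adjusted p of a member was 0.935. Unadjusted, 4 members were under 0.05, all higher in knockout mice (Rsph1, Rsph9, Cfap54 and Cfap43), against 4.65% of all genes. The median was 0.089 for the members and -0.0008 for all genes, and 27 of 33 were higher. Groups overlapped for all members, and did not for 0.0585% of all genes. With a term for the choroid plexus score in the fit the members' median was -0.0017, and without knockout fed replicate 3 it was 0.057.

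In fed mice no direction prevailed among the members. By genotype 0 passed, against 0.00585% of all genes, and 0 were under 0.05 unadjusted, against 4.62%. The median was 0.005 for the members and -0.005 for all genes. Groups overlapped for every member, and did not for 2.46% of all genes. The limits of the 33 differences lay between -0.80 and 0.60. Among fed arrays of the high series alone the members' median was 0.063, and 0 passed.

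In fasted mice the members were higher in the knockout more often than not, without a call. None passed, as for all genes (0%), and 5 were under 0.05 unadjusted, all higher, against 3.86% of all genes. The median was 0.15 for the members and 0.0067 for all genes, and 28 of 33 were higher. Groups did not overlap for 10 members, all higher in the knockout, against 7.64% of all genes. The 10 were Rsph1, Rsph9, Spag6l, Cfap54, Dnah9, Ccdc153, Tekt1, Cfap43, Cfap126 and Ak7. Most of them were among the 19 members that moved together with the others from array to array. Counts of members, here and in the other contrasts, are therefore not separate observations. All 6 arrays belong to the low number series.

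Rsph1, of the radial spoke head, was at 6.98, 7.09 and 6.80 in control fasted mice and at 7.48, 7.27 and 7.23 in knockout fasted mice, a difference of 0.37 ± 0.15 (SE), 1.29-fold. Rsph9 was at 8.14, 8.11 and 8.16 against 8.37, 8.52 and 8.35, a difference of 0.28 ± 0.06, the member with the smallest p, with an adjusted p of 1. Cfap54, of the central pair, was at 6.19, 6.40 and 6.28 against 6.61, 6.84 and 6.48, a difference of 0.35 ± 0.15. Ak7 was at 7.22, 7.18 and 7.03 against 7.41, 7.56 and 7.43, a difference of 0.32 ± 0.14. In each of these genes the lowest knockout array stood above the highest control array, and no difference passed after adjustment over all genes.

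Markers of the choroid plexus, a ciliated epithelium beside the ventricular lining, were also higher in the knockout fasted arrays, with 0 of 16 past the threshold. Their median genotype difference was 1.21 in fasted and 1.04 in fed mice, where the members' medians were 0.15 and 0.005. All 16 were clear of background. Their summed level, on the log2 scale, lay between 10.30 and 12.78 in control fasted arrays and between 13.27 and 13.36 in knockout fasted arrays. It lay between 10.27 and 13.33 in control fed and between 10.76 and 13.64 in knockout fed arrays. With a term for the choroid plexus score, the members' median in fasted mice was 0.071 in place of 0.15. The part of choroid plexus tissue in the member differences was not tested.

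**Figure D4:**
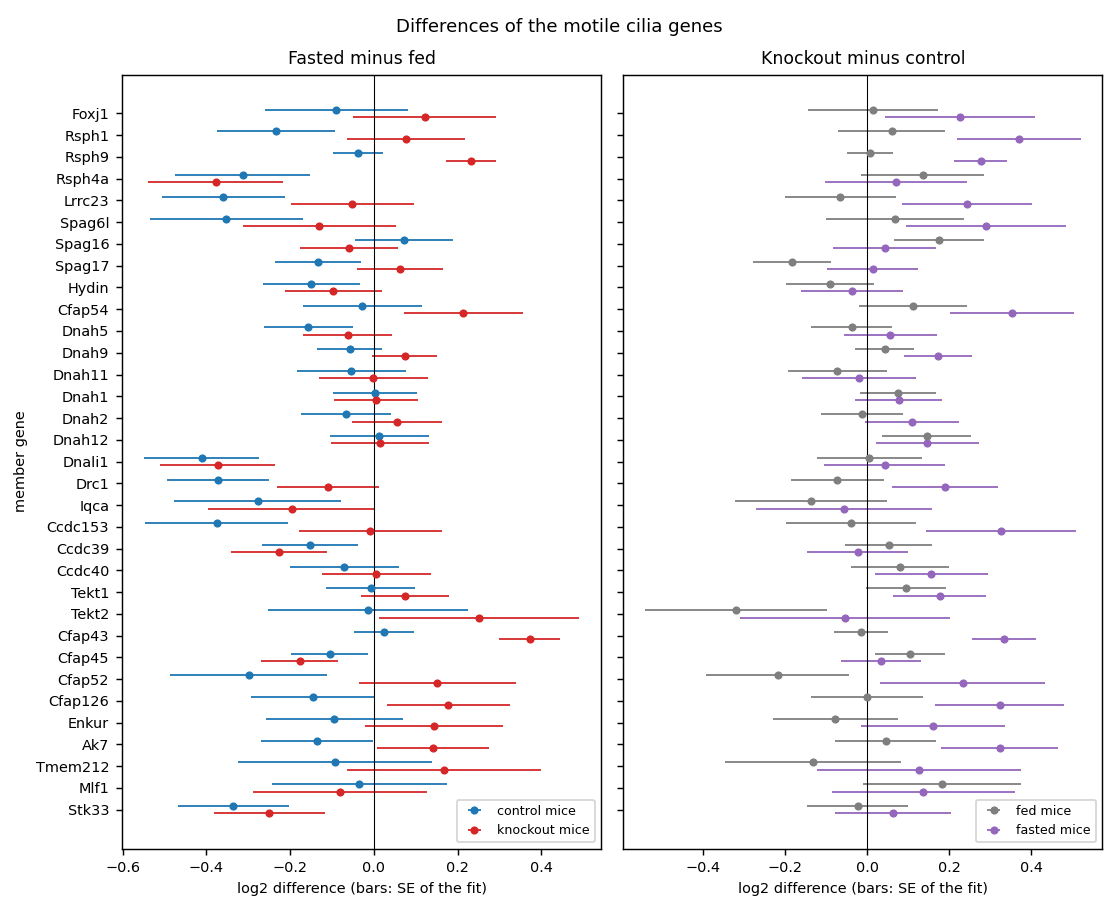
Log2 difference of each measured member with the SE of the fit, as fasted minus fed in control (blue) and knockout (red) mice, and as knockout minus control in fed (grey) and fasted (purple) mice. Most blue points lie left of 0 (29 of 33) and most purple points right of it (28 of 33); apart from Cfap43 in the fasted knockout, no plotted difference passed the adjusted threshold.

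The interaction, taken as the response to the fast in knockout mice less the response in control mice, tests whether the genotypes responded differently. No member and no gene passed (0%). Unadjusted, 2 members were under 0.05, Cfap43 (0.35 ± 0.10 SE, adjusted p = 1) and Rsph9 (0.27 ± 0.08, adjusted p = 1), against 3.82% of all genes. The median was 0.13 for the members and 0.012 for all genes, and 28 of 33 were above 0. Without knockout fed replicate 1 the members' median was 0.087. The control fasted and knockout fasted arrays enter this contrast and the ones above, so these counts are not separate evidence.

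Genes that work with the members gave a mixed picture under the fast, averaged over genotypes. Of 12 measured regulators of multiciliated cells 0 rose and 1 fell, Rfx3, a transcription factor of ciliated cells, by 0.50 ± 0.14 (SE, adjusted p = 0.035). Of 12 dynein arm assembly factors 0 passed (median -0.089). Of 51 other genes of the motile axoneme 1 rose and 6 fell (median -0.065), where 10% of all genes passed in this contrast. Tppp3, a tubulin-binding protein, rose by 0.53 ± 0.08 (adjusted p = 0.00117). The outer-arm intermediate chain gene Dnaic1 (-0.36 ± 0.09, adjusted p = 0.0189), Lrrc34 (-0.23 ± 0.06, adjusted p = 0.0214) and Efcab1 (-0.24 ± 0.06, adjusted p = 0.0214) led those that fell.

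Of 36 genes of intraflagellar transport and the BBSome, which also serve the primary cilia of neurons, 1 rose and 5 fell (median -0.10), to be read against the same 10% of all genes. Ift27, a small GTPase of the transport trains, rose by 0.47 ± 0.05 (SE, adjusted p = 9.73e-05). It also rose in control mice (0.52 ± 0.07, adjusted p = 0.00147) and in knockout mice (0.42 ± 0.07, adjusted p = 0.0132). Kif3b, a subunit of the kinesin that carries these trains, fell by 0.31 ± 0.06 (adjusted p = 0.00719), with Bbip1 (-0.18 ± 0.04, adjusted p = 0.0207) and Wdr19 (-0.28 ± 0.07, adjusted p = 0.0243). No gene of these 4 lists passed between genotypes or in the interaction.

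The cilia score was set beside the scores of neighbouring lists, as a description over the 14 within-group deviations. With the other motile axoneme genes r was 0.94 (Spearman's rho 0.86), and without knockout fed replicates 1 and 3, the arrays farthest from the median, 0.87. With the dynein arm assembly factors r was 0.75 (rho 0.67; 0.51 without these arrays), and with the ependymal genes outside the cilium 0.75 (rho 0.77; 0.69). Taken singly, the 6 ependymal genes ran from an r of -0.80 to 0.84 with the members' mean, and 4 were above 0.5. Within the low series r with the ependymal genes was 0.88, and within the high series 0.63. These per-series values keep the group means, so differences between groups enter them. The tanycyte list had r = -0.39 and the oligodendrocyte list -0.52 (-0.78 without knockout fed replicates 1 and 3), while for regulators of multiciliated cells it was 0.34. For intraflagellar transport and the BBSome r was 0.58 (rho 0.42, and 0.48 without these 2 arrays). For the microglial list r was 0.24 (rho 0.53, and 0.66 without them). For the choroid plexus list r was 0.48 (rho 0.47, and 0.13 without knockout fed replicates 1 and 3). With the group means kept, r was 0.80 within the low series and 0.26 within the high series. The low series holds both fasted groups, so their difference enters the 0.80, which is not comparable with the 0.48. The choroid plexus scores ran from -1.23 to 1.43 and lay in separate sets of arrays. Control fed replicate 4 had the highest cilia score with a choroid plexus score of -0.97, and knockout fed replicate 4 had the highest choroid plexus score with a cilia score of -0.030. The 3 prime minus 5 prime difference of the control probe sets, a measure of RNA quality, was also set beside the cilia score. For Actb r was -0.49 (-0.49 without knockout fed replicates 1 and 3), and for Gapdh -0.085 (0.10). The part of RNA quality in the shared movement was not tested.

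**Figure D5:**
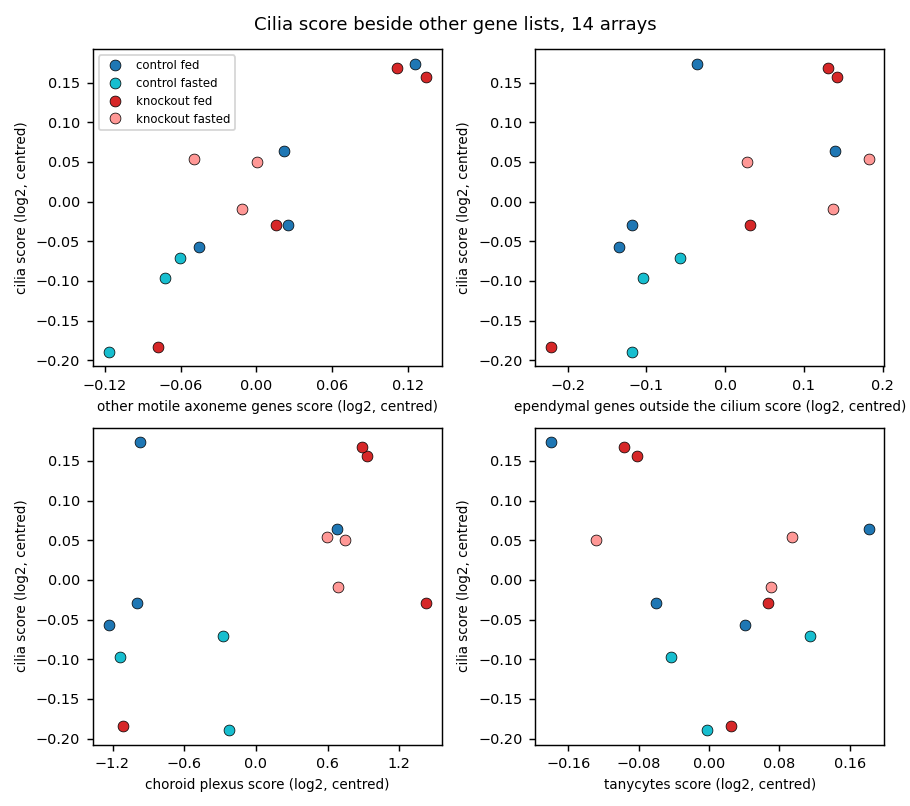
Cilia score of the 14 arrays against the scores of other motile axoneme genes, ependymal genes outside the cilium, choroid plexus and tanycytes, all as means of centred log2 values. The points rise together in the axoneme panel, while in the choroid plexus panel the arrays with choroid plexus scores of -0.97 or less hold cilia scores from -0.18 to 0.17.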

How the data were processed

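The authors deposited log2 expression values per probe set. RMA and affy are named in the submitters' processing notes, while versions and the genome build behind the probe sets are not given in the sources used here. RMA compresses small differences of dim probe sets. Of 45141 probe sets, 28898 named 1 gene in the platform annotation. The model was limma 3.58.1 (R 4.3.3) on all 17097 genes: lmFit with 1 coefficient per group over 14 arrays, contrasts and eBayes, two-sided, with Benjamini-Hochberg adjustment over all genes and a threshold of 0.05. The 95% limits rest on 10 residual and 3.27 prior degrees of freedom and are not adjusted for the number of genes. The fit was run on simulated data with independent noise for each gene. Those data held neither the number series nor the shared movement of the members, so they do not cover these features. The named genes were all measured members, up to 3 genes per direction of each other cilia list and the 10 genes most like the members' mean. The members and lists were chosen with earlier results of these data known. Alternatives were leaving out the dimmest 40% of genes, averaging the probe sets of each gene, fitting only the groups compared, a trended and robust prior, arrays centred on their medians, a term for the number series or for the choroid plexus score, and leaving out each array. No pair of arrays shared more than 2.86% of values, so no array was a copy of another. This does not show that the arrays came from different mice, and each was counted as 1 sample. The number of arrays limits the precision.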

Additional observations from a re-analysis of the deposited data

Results flagged for a closer look

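Of the 64 groups of 4 arrays examined for members by Dixon's test, 7 held an array far from the other 3, where chance gives about 1 in 20. In control fed mice these were Rsph1 on replicate 3 (7.0, others 7.24 to 7.28), Lrrc23 on replicate 4 (7.04, others 6.52 to 6.59), Dnah5 on replicate 2 (4.49, others 4.09 to 4.12), Dnah11 on replicate 4 (5.43, others 4.98 to 5.03) and Ccdc40, of the axonemal ruler, on replicate 2 (4.43, others 4.63 to 4.65). In knockout fed mice they were Rsph9 on replicate 1 (8.07, others 8.21 to 8.23) and Dnah11, an outer-arm heavy chain, on replicate 4 (5.29, others 4.93 to 4.98).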

How the results depend on the processing

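For the fast averaged over genotypes, 2 members passed. The count was 1 with the 40% filter, which leaves Dnali1 out, 1 with the mean of the probe sets, 0 with the number series as a covariate, and 0 to 3 with 1 array left out. Of all genes 15 passed with the series covariate in place of 1715, and 998 to 2120 with 1 array left out, and the members' median was 0.17 with that covariate. In control mice 770 genes passed with the trended and robust prior, 2 with the series covariate and 216 to 685 with 1 array left out, and the members' median was 0.10 with the covariate. In knockout mice 231 genes passed with the 40% filter, 10 with only the groups compared, 341 with the trended and robust prior, 0 with the series covariate and 18 to 363 with 1 array left out. Members called there were 0 with only the groups compared, 0 with the trended and robust prior, 0 with the series covariate, and 0 to 1 with 1 array left out. The members' median was 0.12 with the 40% filter and 0.18 with the series covariate. For the averaged genotype difference 0 genes passed with the mean of the probe sets, 4 with the trended prior, 6 with the series covariate, 4 with the choroid plexus covariate and 1 to 6 with 1 array left out. In fed mice it was 2 with the 40% filter, 0 with the mean of the probe sets, 0 with only the groups compared, 0 with centred arrays, 2 with the trended prior, 2 with the series covariate and 0 to 3 with 1 array left out. In fasted mice it was 4 with only the groups compared, 3 with the series covariate, 2 with the choroid plexus covariate and 0 to 3 with 1 array left out. For the interaction it was 1 with the series covariate and 0 to 1 with 1 array left out, and the members' median was 0.26 with the 40% filter. The median pairwise r was 0.14, without knockout fed replicate 1, to 0.31. The series covariate is set by knockout fed replicate 1 alone; the cause of the other changes was not tested. No called member difference changed sign, and uncalled ones did in 382 of 4654 refits. No paired analysis was possible because no title number recurs between samples.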
